A study of Saccharomyces cerevisiae with 4 samples.

Results

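The transcripts described here encode the soluble factors that carry the ribosome of the yeast *S. cerevisiae* through initiation, elongation, termination and recycling, together with the kinase pathway that controls initiation. They were chosen by gene name from a list of 45 genes, and the probe table names a probe set for 42 of these, 3 of them on probe sets marked as shared between genes, among the 5449 genes read by the array. Expression was measured on 4 arrays of total RNA from exponential cultures in minimal medium with 2% glucose and without uracil. Of these, 1 array is of strain W303-1A with pCM189 alone, an empty vector (WT), and 3 arrays are of the same strain with pCM189::RECQL5-FLAG (RECQL5 1, 2 and 3). In the latter, human RECQL5, a DNA helicase of the RecQ family that binds RNA polymerase II, is expressed with a FLAG tag from a tet promoter that doxycycline represses. All cultures are of mating type a and share the alleles *ura3-1*, *trp1-1*, *ade2-1*, *can1-100*, *leu2-3,112* and *his3-11,15*. The source names of RECQL5 2 and 3 in the labels read RECQL6 and RECQL7, whereas their titles, descriptions and strain entries give RECQL5, and the titles were followed. In the study's text the empty tet vector is pCM184, whereas the labels give pCM189. For the array cultures that text names selective synthetic complete medium, not minimal medium, and states that doxycycline was left out. The human transcript was not analysed here, so the group labels could not be checked against it. The comparison asks which transcripts change in level when yeast makes the human helicase, here among those of translation factors.

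Initiation begins when eIF2 brings the initiator tRNA to the small ribosomal subunit, with eIF1, eIF1A, eIF3 and eIF5, and when the eIF4 factors and the poly(A)-binding protein bring in the capped mRNA. The exchange factor eIF2B recharges eIF2 with GTP after each round. Starvation for amino acids activates the kinase Gcn2, which phosphorylates eIF2 alpha, slows eIF2B and raises translation of the *GCN4* mRNA through short upstream reading frames in its leader. Gcn4 then activates genes of amino acid synthesis. In elongation eEF1A delivers aminoacyl-tRNA, eEF2 moves the ribosome along, and fungi need a further factor, eEF3.

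The 5 transcripts used to check the mating type a label (*STE2*, *MFA1*, *MFA2*, *STE6* and *BAR1*) read 11.17 to 13.68 on the log2 scale over the 4 arrays, and the 3 used for mating type alpha (*STE3* and the 2 alpha factor genes) read 5.75 to 7.96. Probe sets of the same array that are named for genes outside *S. cerevisiae* gave a background level, with a 95th percentile of 4.28 to 4.35 on the 4 arrays. Medians over all probe sets were 6.93 in WT and 7.01 to 7.14 in RECQL5. Pearson's r over the 4128 genes tested was 0.917 to 0.931 between WT and a RECQL5 array and 0.989 to 0.996 between RECQL5 arrays, so the single WT array stood apart from the other 3. With 1 culture in the WT group, its own peculiarities and the effect of RECQL5 cannot be told apart. Each array was scaled to a common distribution, so levels are shares of the RNA, and the amount of RNA per cell was not measured.

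Transcripts of the translation factors were slightly higher in cells expressing RECQL5, in most factors and by small amounts. Of 40 members above the level filter, 27 were higher than WT and 1 was lower by the test (adjusted p of at most 0.1, limma with Benjamini-Hochberg adjustment over all genes tested). The corresponding shares over all genes tested were 34.6% higher and 29.2% lower. The median log2 change of the members was 0.29, which is 1.23-fold, against 0.02 over all genes tested. Only *GCD1*, a subunit gene of eIF2B, also passed the 1.5-fold threshold that defines a called gene, so that 1 of 40 members was called up, where 9.59% of all genes tested were. None of the 40 was called down, where 7.80% of all genes tested were, and 1 member was lower at an unadjusted p under 0.05 in limma. By the test 67.5% of the members were thus higher, against 34.6% of all genes tested, and only 1 of them reached 1.5-fold. A difference from WT in either direction was common among all genes tested as well. Cytosolic ribosomal protein genes, for comparison, were higher by the test in 97.6% of 127 cases and called up in 38.6%. Among those called, *RPL41A* read 8.77 in WT, below the filter level of 9.23. It passed the filter through its RECQL5 values and lies on a shared probe set.

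All 3 RECQL5 arrays lay above WT for 35 members and below it for 1, and in the other 4 the WT value lay within the RECQL5 range. Over all genes tested the shares were 45.5% above and 40.6% below. The median difference over members was 0.26 on RECQL5 1, 0.31 on RECQL5 2 and 0.28 on RECQL5 3, so the 3 RECQL5 cultures differed little in it. The SD over the RECQL5 arrays had a median of 0.04 among the members and was at most 0.10. An exact permutation test of 1 array against 3 cannot give a one-sided p under 0.25, so the calls rest on the spread that limma estimates across genes.

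**Figure D1:**
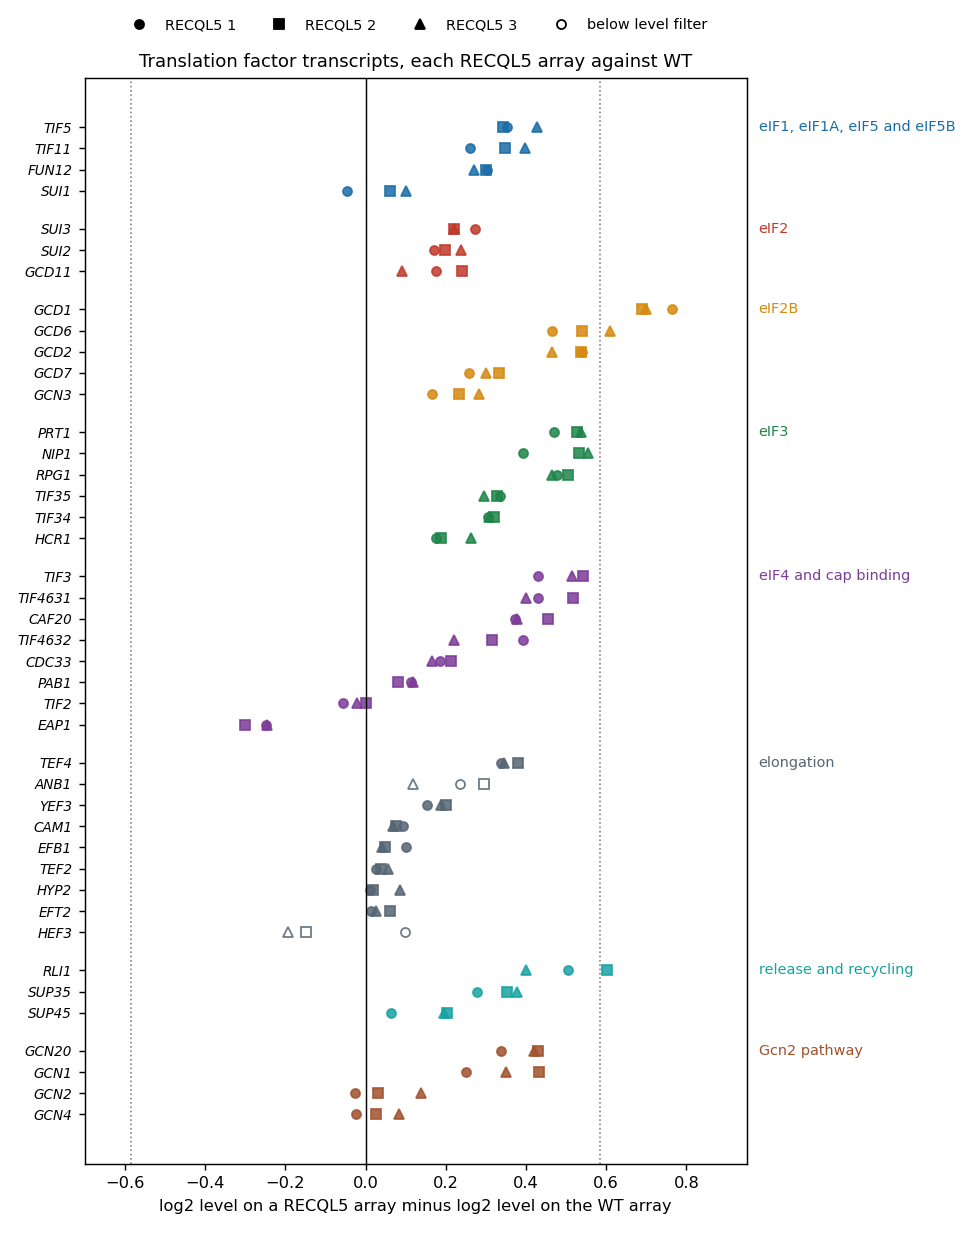
Difference in log2 level between each RECQL5 array and the WT array (x axis) for the 42 genes with a probe set (y axis), ordered by factor group. Circles, squares and triangles are RECQL5 1, 2 and 3, open symbols are the 2 genes below the level filter, and dotted lines mark 1.5-fold. *GCD1* lies beyond 1.5-fold on all 3 arrays and *EAP1* lies below WT on all 3.

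The 3 largest changes among the tested members were those of subunit genes of eIF2B, the GTP exchange factor of eIF2. All 5 of its subunit genes were higher by the test, with a median change of 0.51 (1.43-fold). *GCD1* (YOR260W), the gamma subunit gene, read 10.31 in WT and 11.07, 11.00 and 11.01 in RECQL5. It rose 1.64-fold (log2 change 0.72 ± 0.07 SE, 95% confidence interval 0.55 to 0.88, adjusted p = 0.00114, limma, n = 3 against 1). The RECQL5 values were close together and all well above WT.

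*GCD6* (YDR211W) encodes the epsilon subunit, which holds the catalytic domain. It read 10.79 in WT and 11.25, 11.33 and 11.40 in RECQL5, and *GCD2* (YGR083C), the delta subunit gene, 10.76 in WT and 11.30, 11.30 and 11.22 in RECQL5. Both rose by just under 1.5-fold, with log2 changes of 0.54 ± 0.08 (adjusted p = 0.0037, limma) and 0.51 ± 0.07 (adjusted p = 0.00262). *GCD7* (YLR291C), the beta subunit gene, read 10.81 in WT and 11.07, 11.15 and 11.11 in RECQL5, a change of 0.30 ± 0.06. The smallest change of the complex was that of *GCN3* (YKR026C, 0.23 ± 0.07), which encodes the alpha subunit and is the only one of the 5 that cells can do without. It read 11.22 in WT and 11.38, 11.45 and 11.50 in RECQL5. The 95% confidence interval of *GCD1*, 0.55 to 0.88, lay above those of *GCD7*, 0.13 to 0.46, and *GCN3*, 0.05 to 0.41. These intervals share the WT array, and whether subunits of one complex differ in their change was not tested.

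eIF2, the substrate of this exchange, changed less. *SUI2* (YJR007W), which encodes the alpha subunit that Gcn2 phosphorylates, read 12.02 in WT and 12.19, 12.22 and 12.26 in RECQL5, a rise of 0.20 ± 0.06 (adjusted p = 0.0432, limma). The beta subunit gene *SUI3* rose by 0.24 ± 0.06. *GCD11*, the gene of the GTP-binding gamma subunit, differed by 0.17 ± 0.08 and missed the threshold (adjusted p = 0.125). All 3 genes were above WT on every RECQL5 array, as were 45.5% of all genes tested, and their median was 1.15-fold. Without RECQL5 2, *SUI2* (0.20, adjusted p = 0.12) and *GCN3* of eIF2B (0.22, adjusted p = 0.114) kept about the same change and no longer passed the test.

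The scaffold factor eIF3 rose in all 6 of its genes, with a median change of 0.40 (1.32-fold). The 3 largest subunits by gene length changed the most. *PRT1* (YOR361C, eIF3b) read 12.07 in WT and 12.54, 12.60 and 12.61 in RECQL5, a rise of 0.51 ± 0.06 (adjusted p = 0.00248, limma). *NIP1* (YMR309C, eIF3c) read 12.25 in WT and 12.65, 12.78 and 12.81 in RECQL5, a rise of 0.49 ± 0.08. *RPG1* (YBR079C, eIF3a) read 12.06 in WT and 12.54, 12.57 and 12.53 in RECQL5, a rise of 0.48 ± 0.06. In each of them the lowest RECQL5 value was clear of the WT value, and none reached 1.5-fold in the mean.

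The smaller eIF3 subunit genes *TIF35* (eIF3g, 0.32 ± 0.06) and *TIF34* (eIF3i, 0.31 ± 0.06) rose by less. The 3 RECQL5 arrays of *TIF34*, at 12.91, 12.92 and 12.91, agreed closely and lay above the WT value of 12.60. *HCR1* (eIF3j, 0.21 ± 0.07), a loosely bound subunit that also takes part in processing of ribosomal RNA, changed the least of the 6. Without RECQL5 2 its change was 0.22 and no longer passed the test (adjusted p = 0.108, limma).

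**Figure D2:**
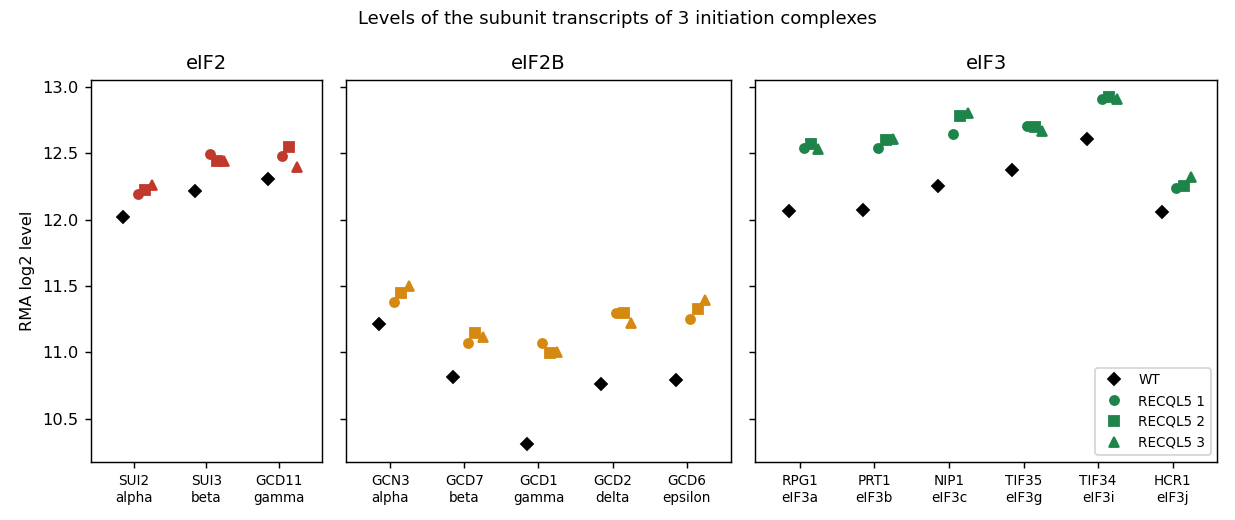
RMA log2 level (y axis) of the subunit transcripts of eIF2, eIF2B and eIF3 on each array, with WT as black diamonds and the 3 RECQL5 arrays as coloured symbols. Every WT value lies below the RECQL5 values of the same gene, most for *GCD1*. The same order holds for 45.5% of all genes tested. Different genes are read by different probe sets, so heights are comparable within a gene only.

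Of the 4 genes for eIF1, eIF1A, eIF5 and eIF5B, 3 rose. *TIF5* (YPR041W) encodes eIF5, which makes eIF2 hydrolyse its GTP at the start codon. It read 11.647 in WT and 11.998, 11.990 and 12.074 in RECQL5, a rise of 0.37 ± 0.07 (adjusted p = 0.00725, limma). *TIF11* (eIF1A) rose by 0.34 ± 0.08 and *FUN12* (eIF5B), whose GTPase joins the ribosomal subunits, by 0.29 ± 0.06. *SUI1* (eIF1), which guards the choice of start codon, read 13.01 in WT, within the RECQL5 range of 12.97 to 13.12, and its difference of 0.04 lay in an interval of -0.16 to 0.24.

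In the group of the eIF4 factors, the proteins that bind eIF4E and the poly(A)-binding protein, 5 of 8 tested genes rose and 1, which encodes an eIF4E-binding protein, fell, with a median change of 0.25. *TIF3* (YPR163C), the gene of eIF4B, which assists unwinding of the leader, read 12.0001 in WT and 12.43, 12.54 and 12.51 in RECQL5, a rise of 0.50 ± 0.07 (adjusted p = 0.00373, limma). The scaffold eIF4G is encoded by 2 paralogs. *TIF4631* (YGR162W) read 11.03 in WT and 11.46, 11.54 and 11.43 in RECQL5, and *TIF4632* (YGL049C) 10.34 in WT and 10.73, 10.65 and 10.56 in RECQL5. They rose by 0.45 ± 0.07 and 0.31 ± 0.08, with confidence intervals of 0.27 to 0.63 and 0.10 to 0.52 that overlap. The difference from WT was larger for *TIF4631* on each RECQL5 array, and whether the paralogs differ in their change was not tested. *CDC33*, the gene of the cap-binding protein eIF4E, rose by 0.19 ± 0.06 and no longer passed the test without RECQL5 2 (0.18, adjusted p = 0.153) or after cyclic loess normalization (0.14, adjusted p = 0.104).

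The 2 proteins that bind eIF4E in competition with eIF4G, products of *CAF20* and *EAP1*, had transcripts that changed in opposite directions. *CAF20* (YOR276W) read 12.25 in WT and 12.63, 12.71 and 12.63 in RECQL5, a rise of 0.40 ± 0.07 (adjusted p = 0.00581, limma). *EAP1* (YKL204W) read 10.62 in WT and 10.37, 10.31 and 10.37 in RECQL5. It changed by -0.26 ± 0.06 (adjusted p = 0.0178), WT being 1.20-fold above RECQL5, and was the only tested member that fell. Neither gene had overlapping groups. Over all genes tested, all 3 RECQL5 arrays lay above WT for 45.5% and below it for 40.6%. Under the 10 alternatives the change of *EAP1* ranged from -0.31 to -0.25, with an adjusted p of at most 0.0681.

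*PAB1*, the poly(A)-binding protein gene, differed by 0.10 ± 0.06 and missed the threshold (adjusted p = 0.199, limma). The helicase eIF4A is made from *TIF1* and *TIF2*, which encode the same protein. The probe table names 1 probe set for *TIF2*, marked as shared between genes, and none for *TIF1*, so its signal may hold both transcripts. It read 13.86 in WT and 13.81, 13.86 and 13.84 in RECQL5, which overlap, and the difference of -0.02 lay in an interval of -0.18 to 0.13. The changes of *TIF3* and *TIF4631* lay above that interval. These estimates share the WT array, and whether the genes differ in their change was not tested.

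Elongation factor transcripts hardly differed, with a median change of 0.06 over 7 tested genes and 2 that rose. That median changed sign after cyclic loess normalization, to -0.024. For eEF1A and eEF2, each again encoded by a gene pair with the same product, the shared probe sets named for *TEF2* and *EFT2* were read. *TEF2* read 14.54 in WT and 14.57, 14.58 and 14.60 in RECQL5 (difference 0.04 ± 0.06), and *EFT2* 14.02 in WT and 14.03, 14.08 and 14.04 in RECQL5 (0.03 ± 0.06). Their RECQL5 values lay above WT by less than the standard error of the difference. *HYP2* (YEL034W), the gene of eIF5A, which helps ribosomes through difficult stretches such as runs of proline, read 14.15 in WT and 14.16, 14.17 and 14.23 in RECQL5 (0.04 ± 0.07).

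The subunits of eEF1B, the exchange factor of eEF1A, differed among themselves. Its gamma subunit is encoded by 2 paralogs, *TEF4* and *CAM1*. *TEF4* (YKL081W) read 13.34 in WT and 13.68, 13.72 and 13.68 in RECQL5, a rise of 0.35 ± 0.06 (adjusted p = 0.00629, limma). *CAM1* (YPL048W) read 12.41 in WT and 12.51, 12.49 and 12.48 in RECQL5, a difference of 0.08 ± 0.06 that missed the threshold (adjusted p = 0.31). The confidence intervals, 0.20 to 0.51 and -0.07 to 0.23, overlap slightly, and the difference between the paralogs was not tested. The alpha subunit gene *EFB1* differed by 0.06 ± 0.06, in an interval of -0.10 to 0.22.

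eEF3, an ATPase that frees the exit site of the ribosome, is made from *YEF3* in growing cells. *YEF3* (YLR249W) read 14.01 in WT and 14.17, 14.21 and 14.20 in RECQL5, a rise of 0.18 ± 0.06 (adjusted p = 0.0539, limma). It no longer passed the test after cyclic loess normalization (0.07, adjusted p = 0.334) or without RECQL5 2 (0.17, adjusted p = 0.167). Its paralog *HEF3* (YNL014W) and the paralog of *HYP2* that is known to be induced without oxygen, *ANB1* (YJR047C), read below the level filter of 9.23 on every array and were not tested. *HEF3* read 8.79 in WT and 8.89, 8.64 and 8.59 in RECQL5, and *ANB1* 7.708 in WT and 7.943, 8.002 and 7.825 in RECQL5. Both lay above the 95th percentile of the background probe sets on every array. So did the 3 transcripts used for mating type alpha, at 5.75 to 7.96, so this does not show that *HEF3* or *ANB1* is expressed. WT lay inside the RECQL5 range for *HEF3* and below it for *ANB1*.

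Termination and recycling genes were higher in 2 of 3 cases. *RLI1* (YDR091C) encodes the iron-sulfur ATPase that splits the ribosome after termination. It read 10.71 in WT and 11.21, 11.31 and 11.11 in RECQL5, a rise of 0.50 ± 0.09 (adjusted p = 0.00761, limma), with the widest spread over RECQL5 arrays of any tested member (SD 0.10). *SUP35*, the gene of the release factor eRF3, rose by 0.34 ± 0.07. *SUP45*, the gene of its partner eRF1, which reads the stop codon, differed by 0.15 ± 0.08 and missed the threshold (adjusted p = 0.16). It passed without RECQL5 1 (adjusted p = 0.0729).

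In the Gcn2 pathway the transcripts of the upstream regulators rose while those of the kinase and of its effector did not pass the test. *GCN20* (YFR009W) read 11.17 in WT and 11.51, 11.61 and 11.59 in RECQL5, a rise of 0.40 ± 0.07 (adjusted p = 0.00642, limma). *GCN1*, whose product binds ribosomes with Gcn20 and is needed to activate Gcn2, rose by 0.34 ± 0.09. *GCN2* (YDR283C) read 10.03 in WT, between RECQL5 values of 10.01, 10.06 and 10.17, with a difference of 0.05 ± 0.08 in an interval of -0.16 to 0.26. *GCN4* (YEL009C) read 13.69 in WT and 13.66, 13.71 and 13.77 in RECQL5, a difference of 0.03 ± 0.07 (interval -0.15 to 0.20, adjusted p = 0.762). The groups overlapped for both genes.

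Targets of Gcn4 fell, while no difference in its own transcript was detectable. In a list of 34 tested targets, 27 were lower and 1 was higher at an adjusted p of at most 0.1 (limma), and 13 were called down and none up, with a median change of -0.43. Over all genes tested, 29.2% were lower and 34.6% higher, and 7.80% were called down and 9.59% up. *LYS9* (-2.60), *LYS1* (-2.38), *LYS20* (-2.02) and *LYS12* (-1.34), all of lysine synthesis, were the lowest. *GCN4* is controlled mainly by translation, and neither its protein nor the phosphorylation of eIF2 alpha was measured here. Amino acid metabolism was a category the study drew from these same arrays, and the direction of this list is therefore not independent evidence.

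**Figure D3:**
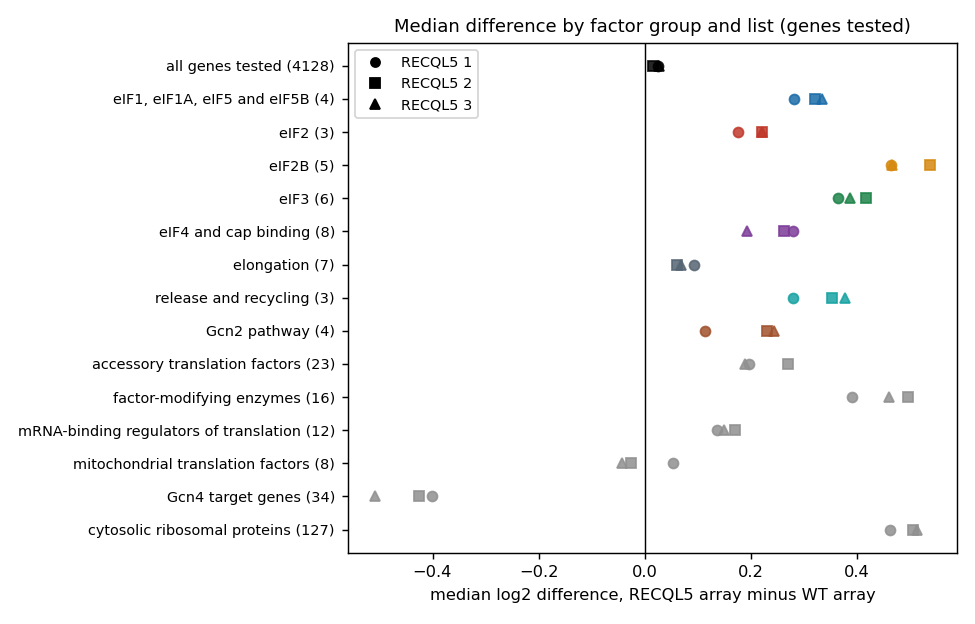
Median log2 difference between each RECQL5 array and the WT array (x axis) by factor group and by other list (y axis, number of genes tested in brackets), with 1 symbol per RECQL5 array. eIF2B and eIF3 lie highest among the factor groups, elongation lies near the median of all genes tested, and the Gcn4 targets lie at -0.51 to -0.40.

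Transcripts of enzymes that modify translation factors rose in most cases. Of 16 tested genes in that list, 12 were higher and none was lower at an adjusted p of at most 0.1 (limma), and 7 were called up, with a median change of 0.45. Among all genes tested, 34.6% were higher, 29.2% lower and 9.59% called up. *EFM4* (YIL064W), a methyltransferase of eEF1A, read 9.70 in WT and 11.04, 11.12 and 10.96 in RECQL5, a rise of 1.34 ± 0.08 (adjusted p = 0.000712). *EFM1* (YHL039W), another methyltransferase of eEF1A, read 10.33 in WT and 11.18, 11.21 and 11.17 in RECQL5, a rise of 0.86 ± 0.06. In both, every RECQL5 value was far above WT. *EFM2* (YBR271W), which acts on eEF2 and eEF3, rose by 0.90 ± 0.09 from a WT value of 9.02 that is below the filter level. It passed the filter through its RECQL5 values and is counted among the 7. *DPH1* (0.67 ± 0.06), which starts the diphthamide modification of eEF2, is the last of the 4 largest. Among the factors that the enzymes named here act on, *TEF2* and *EFT2* missed the threshold. *YEF3* passed it (adjusted p = 0.0539, limma), but not after cyclic loess normalization or without RECQL5 2.

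Accessory factors, such as the helicase Ded1 and the chaperones bound to ribosomes, were higher in 12 of 23 cases and lower in 2 (median 0.19). The 1 called gene of that list was *RBG2* (YGR173W), which encodes a GTPase that binds Gir2, a partner of Gcn1. It read 9.47 in WT and 10.25, 10.37 and 10.43 in RECQL5, a rise of 0.88 ± 0.09 (adjusted p = 0.00133, limma). Of 12 regulators of translation that bind mRNA, 6 were higher and 4 lower (median 0.15), and none was called. The factors of mitochondrial translation, which serve a separate ribosome, had a median of -0.04, with 1 higher and 1 lower of 8 tested and none called. The shares over all genes tested were 34.6% higher, 29.2% lower, 9.59% called up and 7.80% called down. As lists these counts are descriptions, and the lists differ in level.

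The change varied with level and gene length among the members, for level in no single direction. The 4 members with a mean log2 level under 11 had a median change of 0.18, with 2 higher and 1 lower by the test. The 10 members with a mean log2 level of at least 13 had a median change of 0.04 and 2 of them were higher by the test, while the 9 between 11 and 12 had a median of 0.40 and all were higher. The 17 between 12 and 13 had a median of 0.31 and 14 were higher. Over all genes tested the median was 0.03 under 11, 0.02 between 11 and 12, -0.07 between 12 and 13 and 0.08 from 13 on. Members of at least 2000 bases had a median of 0.34 (13 genes), those between 1000 and 2000 bases 0.30 (15 genes) and shorter ones 0.21 (12 genes), against 0.13, 0.01 and -0.04 over all genes tested. The members' medians lay above those of all genes in each length bin and in every level bin but the highest. All genes tested include the 127 cytosolic ribosomal protein genes, whose median level was 13.65 and median change 0.49. The part of level and of length in the result was not tested.

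**Figure D4:**
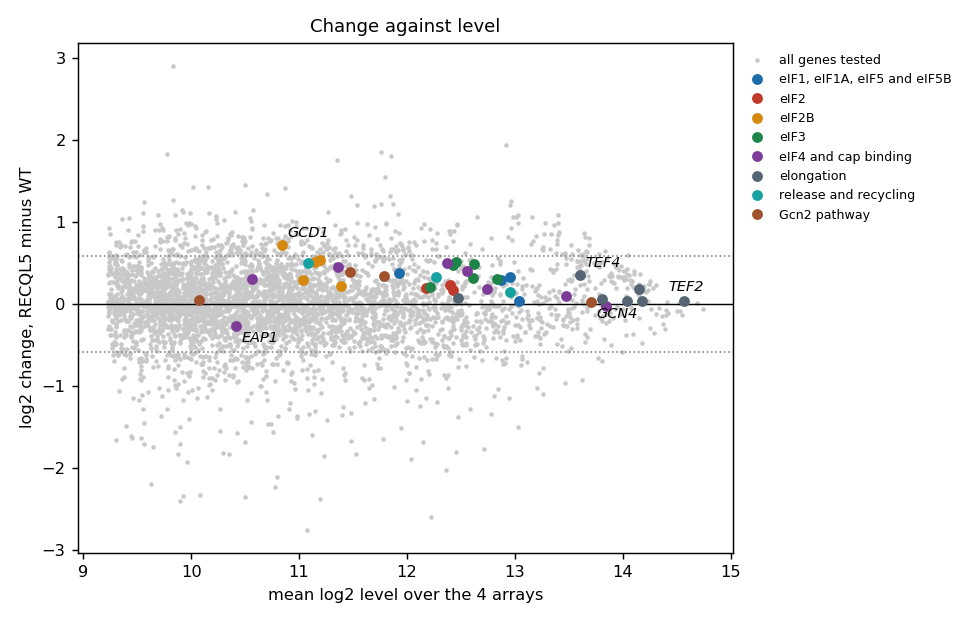
Log2 change of RECQL5 against WT (y axis) by mean log2 level over the 4 arrays (x axis) for all genes tested (grey) and the 40 tested members (coloured by factor group), with dotted lines at 1.5-fold. *GCD1* alone among the members passes the line, and the members of highest level, such as *TEF2*, lie near 0.

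The 42 genes with a probe set lie on 13 of the 16 chromosomes, and no 2 of them are neighbours in the gene order of the R64 annotation.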

How the data were processed

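The authors deposited log2 values for 10928 probe sets on 4 Affymetrix Yeast Genome arrays, made by RMA, which subtracts background, gives the arrays a common distribution and summarises the probes of a set by median polish. Per the labels RMA and limma were used, in versions the sources used here do not give. The study states that its WT array was standardized with published arrays. The method, and whether the deposited WT values come before that step, are not stated, and any comparison with WT rests on this open point.

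Replicates are separate biological replicates per the labels. The array's probe table paired 5498 probe sets with 1 *S. cerevisiae* gene. Each gene was read by its probe set of highest mean, which left no choice for the members since none had more than 1. Of the 45 listed genes, *TIF1*, *TEF1* and *EFT1* had no probe set named for them, those of *TIF2*, *TEF2* and *EFT2* were marked as shared, and *HEF3* and *ANB1* lay below the level filter, a mean of at least log2(600), or 9.23, which the study gives. The remaining 40 were tested among 4128 genes in limma 3.58.1 (R 4.3.3, lmFit and eBayes, two-sided, Benjamini-Hochberg adjustment over all 4128). The fit has 2 residual degrees of freedom, from the RECQL5 arrays alone, and assumes that WT varies like them. A call needed both at least 1.5-fold and an adjusted p no higher than 0.1. This gave 396 genes called up and 322 called down. With every array required to reach log2(600), 332 were called up and 286 down. Under both filters these are more in each direction than the study reports at these thresholds. The reason for that was not tested. Values after ± are SE of the fit. The procedure was tested on simulated data in which all 4 arrays had the same spread, taken from the RECQL5 arrays. That test therefore cannot show whether WT varies like them. The number of arrays limits the precision.

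Values on each array are given for called members, the 12 largest changes, paralogs encoding one factor, *GCN2*, *GCN4*, *SUI2* and eIF2B. Up to 4 called genes of each further list, except the ribosomal protein genes, are named as well. Of these, the Gcn4 targets and *DPH1* have the change only, and *EFM2* the change and the WT value. Other values for *SUI1*, *TIF34* and the ribosomal protein genes were added after they were seen. The members and lists were chosen with earlier results of these data known. Alternatives were other level filters, cyclic loess, median centring, other probe set rules, a variance trend, other thresholds and leaving out each RECQL5 array. Sequences were not analysed here.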

Additional observations from a re-analysis of the deposited data

How the results depend on the processing

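Under 10 alternative settings 1 member, *GCD1*, was called up and none down, with a change of *GCD1* between 0.68 and 0.73. It was called at the stricter adjusted p of 0.01 as well, and at any fold 27 members were higher and 1 lower. The number higher was 22 to 28 over the alternatives, lowest without RECQL5 replicate 2, and the number lower was 1 in each. The 28 members past an adjusted p of 0.1 stayed past it in 273 of 280 recomputed values, and the 12 others stayed short of it in 114 of 117. Those no longer past it were *SUI2*, *GCN3*, *HCR1*, *CDC33* and *YEF3* without RECQL5 replicate 2, and *CDC33* and *YEF3* after cyclic loess. Those newly past it were *GCD11* without RECQL5 replicate 3 (adjusted p = 0.0429, limma), *SUP45* without RECQL5 replicate 1 and *PAB1* with a variance trend (adjusted p = 0.0796). Cyclic loess lowered the median change of the members to 0.25, of eIF1, eIF1A, eIF5 and eIF5B to 0.26, of eIF3 to 0.36 and of the eIF4 group to 0.20. It turned that of elongation to -0.024 and that of all genes tested from 0.02 to -0.019. Without shared probe sets, which removes *TIF2*, the eIF4 median was 0.31. Left-out replicates moved the members' median between 0.28 and 0.30. No paired analysis was possible because WT and RECQL5 share only 1 replicate number. The single WT array limits all comparisons.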
